A study of Mus musculus with 2 samples.

Results

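The genes described here are 50 genes of protein folding in the endoplasmic reticulum (ER), of the unfolded protein response and of COPII transport, followed in mouse osteoblast cultures at day 5 and day 12 of differentiation. They were listed by symbol under a rule that uses no measured value, though the list was drawn up with earlier results of these data known, and all probe sets annotated with a member symbol were taken from an Affymetrix array of 45101 probe sets. A probe set is a group of short probes for 1 transcript. Of the 50 members, 49 had 110 probe sets with that symbol alone, and Fkbp10 was not analysed here. A further probe set that carries 2 symbols, of which Sec61b is 1, was left out. In all, 18193 genes had a named probe set.

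Both samples were CD11b-negative cells from the skull roof of newborn mice, cultured with 50 µg/ml ascorbic acid and 10 mM β-glycerophosphate, for 5 days in the first and 12 days in the second. CD11b is a myeloid surface protein, ascorbic acid is needed for collagen hydroxylation, and β-glycerophosphate supplies phosphate for mineral. The labels name no further treatment, and the strain, the number of animals and the number of cultures behind each RNA were not given in the sources used here. There was 1 array per day, so every difference compares these 2 arrays, and no replicate error, interval or p-value could be given. The values are the authors' deposited signal intensities, scaled to the same mean on both arrays. A ratio is day 12 over day 5, and a log2 ratio of 1 is a 2-fold difference.

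A gene was counted as measured if its brightest probe set reached the 60th percentile of either array, which was 46.6 on the day 5 array and 44.8 on the day 12 array. That held for 10479 genes of the series. It held for 48 members, each above that floor on both days, and 94 of their probe sets reached it. Derl3, with signals of 39.5 and 4.38, lay below it on both days. Where several probe sets of a gene were measured, the brightest gives the value below and the others are its only repeat measurement. In the 24 members measured by 2 or more probe sets, the top 2 by signal gave log2 ratios a median of 0.13 apart, and the spread of probe sets within a gene was 0.20 (SD). All measured probe sets of a gene lay on the same side of 0 in 14 of these 24 members and on both sides in 10. This error covers the probes and not the cultures.

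Of the cell type markers, 7 of 10 osteoblast genes were measured and 5 of them were at least 2-fold higher at day 12, with a summed signal of 21935 and then 45160, while Runx2, Bglap and Spp1 were not analysed here. All 10 chondrocyte markers were measured, 7 were at least 2-fold lower, and their summed signal was 34311 and then 13358. Myeloid markers were present on both days in cells depleted of CD11b carriers. Of the 10, 9 were measured and all 9 were at least 2-fold higher at day 12, with a summed signal of 4798 and then 11983, while Itgam, which encodes CD11b, lay below the floor. None of the 6 endothelial markers and, of 7 B lineage and plasma cell markers with a probe set, only Sdc1 was above the floor. Of 5 adipocyte markers with a probe set, 4 were measured, with a median log2 ratio of -0.64. Fabp4 (-0.83), Adipoq (a bound of -0.75) and Pparg (-0.54) were lower, while Lpl was 2.11-fold higher and carried the summed signal from 1107 to 1758. No marker was listed at 0. Fewer cells of a type and less RNA per cell cannot be told apart in such bulk samples, and the part of these shifts in cell markers in the values below was not tested.

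Osteoblasts export large amounts of type I collagen. New chains enter the ER through the Sec61 channel, are folded by chaperones such as BiP (Hspa5), by disulfide isomerases and by collagen-specific factors, and leave in vesicles coated with COPII, while ER residents that escape are returned by KDEL receptors. When unfolded protein accumulates, the sensors IRE1 (Ern1), PERK (Eif2ak3) and ATF6 are activated. IRE1 splices the Xbp1 message into that of an active transcription factor, ATF6 is cut in the Golgi to release another, and PERK slows translation while favouring ATF4. OASIS (Creb3l1) and BBF2H7 (Creb3l2) are membrane-bound relatives of ATF6 known from bone and cartilage.

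The main difference among the members was in the stress transcription factor gene Creb3l1, which was 3.77-fold higher at day 12. No chaperone, translocon or coat gene differed by 2-fold. Creb3l1 alone of 48 measured members was at least 2-fold higher (2.08%), against 3.56% of all measured genes, and no member was at least 2-fold lower, against 1.73%. At 1.5-fold, Creb3l1 and Atf6 were higher, against 7.25% of all measured genes, and Hsp90b1 was lower, against 7.70%. These last 2 depended on the processing, as the log2 ratio of Atf6 was 0.55 after adding a pseudocount and 0.23 as a median over its probe sets, and that of Hsp90b1 was -0.42 as such a median. Ern1, just under 1.5-fold as deposited, passed it with median centring (0.63), quantile normalisation (0.63) and loess (0.68), and Pdia4 was lower past it with quantile normalisation (-0.60). These counts are not above the background of the series. As deposited, the log2 ratio was above 0 in 26 of the 48 members (54.2%), against 43.6% of all measured genes. These shares depended on the normalisation. Serpinh1, Sec61b, Sec13 and Kdelr2 fell below 0 with quantile normalisation, where 4760 of all 10479 measured genes were above 0. With loess Serpinh1, Sec61b and Kdelr2 fell below 0, Eif2ak3 rose above it, and 5386 of all measured genes were above 0. The median log2 ratio as deposited was 0.06 in members, against -0.05. After quantile normalisation the median was -0.027 in members, against -0.033 in all measured genes. After loess it was -0.0015 in members, against 0.0091, so the members no longer lay above the background. The quartiles of the members' log2 ratios were -0.12 and 0.20, against -0.27 and 0.17 in all measured genes. Members were brighter, with a median day 5 signal of 2196, against 321 in all measured genes. The part of signal level in these shares and quartiles was not tested. The role groups lay on both sides of 0. Median log2 ratios were -0.11 for general chaperones, -0.17 for disulfide isomerases and -0.07 for ER-associated degradation. They were 0.03 for the COPII coat (-0.02 after quantile normalisation) and 0.12 for procollagen folding factors (0.004 after quantile normalisation). For the translocon the median was 0.17, for cargo and retrieval receptors 0.21 and for the sensors and their transcription factors 0.35. Each group holds 3 to 11 measured genes on 1 array per day, so the differences between groups were not tested.

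**Figure D1:**
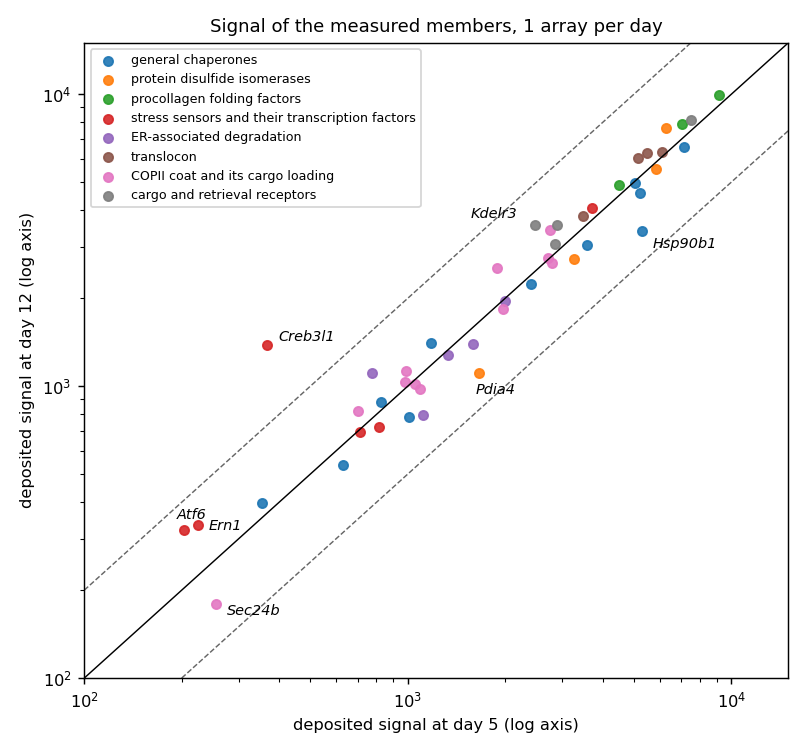
Deposited signal of the brightest probe set of each of the 48 measured members at day 5 and day 12, on log axes, coloured by role, with 1 array per day. The solid line marks equal signal and the dashed lines a 2-fold difference; Creb3l1 is the only point outside them.

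Promoters of the members were read for the motifs that stress transcription factors are known to bind, because this sets the genes side by side by their control sequences. The windows are RefSeq promoters of the build GRCm38.p6, from 250 bases before to 50 bases after the gene start, and 41 members matched by symbol with 44 windows. Hyou1, Manf, Fkbp10, Atf6, Creb3l1, Derl1, Sec61a1, Lman1 and Kdelr2 had no entry. The ER stress response element (ERSE), read as CCAAT, any 9 bases and then CCACG on either strand, was in 8 of the 44 member windows (18.2%) and in 0.119% of all 32851 windows. Of the 13 windows with it among those of genes measured on these arrays, 7 belonged to members. Members and motifs were both chosen from what is known of the unfolded protein response. The higher share of such motifs among members is therefore no separate result. The 9 ERSE matches in those 8 members follow, 5′ to 3′ along the strand of the match, with the fixed letters in capitals.
Hspa5: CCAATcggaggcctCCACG
Hsp90b1: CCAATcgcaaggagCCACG
Hsp90b1: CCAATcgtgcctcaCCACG
Calr: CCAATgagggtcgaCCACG
Canx: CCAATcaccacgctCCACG
Dnajc3: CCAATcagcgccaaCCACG
Creld2: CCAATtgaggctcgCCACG
Pdia6: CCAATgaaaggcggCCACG
Derl3: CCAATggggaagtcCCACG

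A shorter form, ERSE-II, read as ATTGG, any 1 base and then CCACG, was in the windows of Herpud1 and Dnajb11 (4.55% of member windows) and in 0.0365% of all windows.
Herpud1: ATTGGgCCACG
Dnajb11: ATTGGcCCACG
The unfolded protein response element, read as TGACGTGG, was in 3 member windows (6.82%), those of Sec23a, Sec24d and Kdelr3, and in 0.676% of all windows. Its variant TGACGTGA was in the Hspa5 window alone among members (2.27%) and in 0.441% of all windows. The cyclic AMP response element TGACGTCA and the amino acid response element TGATGNAAT, which ATF4 is known to bind, were in none of the 44 member windows and in 1.79% and 0.965% of all windows. Both strands were read for each motif, and the CCACG of either ERSE form can share bases with TGACGTGG on the other strand. For the cyclic AMP and amino acid response elements, the shares among windows of measured genes were 3.05% and 0.363%. With shares this low, their absence from 44 windows is not read as a trait of the members. A match is a description of letters and not a site shown to be bound.

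The 250 bases before the start are shown for 5 members that carry these motifs and that the values below turn on, 5′ to 3′ on the gene's strand with every matched letter in capitals. They lie at chr2:34771840-34772089 (+ strand) for Hspa5, chr10:86705445-86705694 (- strand) for Hsp90b1, chr8:94386179-94386428 (+ strand) for Herpud1, chr15:79516158-79516407 (+ strand) for Kdelr3 and chr3:123267246-123267495 (+ strand) for Sec24d. In Hspa5 the ERSE runs from base -65 to base -47, counted from the gene start, and TGACGTGA from -157 to -150. Hsp90b1 has a pair of ERSE matches, from -212 to -194 and from -107 to -89. The ERSE-II of Herpud1 runs from -52 to -42, and the TGACGTGG of Sec24d and of Kdelr3 from -26 to -19 and from -30 to -23.
Hspa5: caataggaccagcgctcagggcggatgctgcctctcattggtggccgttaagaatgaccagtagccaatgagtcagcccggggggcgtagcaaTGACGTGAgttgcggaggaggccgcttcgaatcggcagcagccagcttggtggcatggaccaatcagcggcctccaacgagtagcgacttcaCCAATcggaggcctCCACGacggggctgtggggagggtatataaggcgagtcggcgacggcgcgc
Hsp90b1: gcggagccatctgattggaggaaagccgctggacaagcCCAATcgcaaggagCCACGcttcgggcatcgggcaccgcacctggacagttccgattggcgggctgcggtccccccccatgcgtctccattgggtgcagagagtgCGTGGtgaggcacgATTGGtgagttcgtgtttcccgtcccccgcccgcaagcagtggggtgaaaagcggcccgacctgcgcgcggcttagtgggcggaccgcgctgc
Herpud1: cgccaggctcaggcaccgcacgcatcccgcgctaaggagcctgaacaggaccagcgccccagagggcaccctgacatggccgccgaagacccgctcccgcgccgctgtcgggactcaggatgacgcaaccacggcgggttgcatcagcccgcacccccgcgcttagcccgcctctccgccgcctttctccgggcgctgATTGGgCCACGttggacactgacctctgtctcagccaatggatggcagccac
Kdelr3: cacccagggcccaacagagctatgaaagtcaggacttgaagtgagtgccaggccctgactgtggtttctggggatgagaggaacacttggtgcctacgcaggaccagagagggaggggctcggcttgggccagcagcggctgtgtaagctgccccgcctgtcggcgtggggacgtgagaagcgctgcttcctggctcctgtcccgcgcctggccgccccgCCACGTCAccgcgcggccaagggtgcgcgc
Sec24d: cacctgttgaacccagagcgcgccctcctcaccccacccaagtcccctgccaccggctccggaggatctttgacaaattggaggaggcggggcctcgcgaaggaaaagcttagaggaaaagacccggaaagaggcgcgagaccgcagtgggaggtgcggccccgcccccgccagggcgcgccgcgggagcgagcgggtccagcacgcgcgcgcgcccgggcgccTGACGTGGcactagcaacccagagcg

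Among the general chaperones, 8 of 11 had a ratio below 1, against 5915 of all 10479 measured genes. The other 3 were above 1, and no chaperone differed by 2-fold. The split was 7 and 4 with median centring or the median over probe sets. It was 4 and 4 of 8 when probe sets with names ending in s_at, x_at or a_at, here called shared-sequence, were dropped. That left Hspa5, Hsp90b1 and Calr without a value. The ending a_at marks probes shared by transcripts of the same gene, so this setting also discards probe sets particular to a gene. Hspa5, the main ER chaperone of the HSP70 class and a repressor of the sensors, had signals of 7114 and 6597 at the 2 days, a log2 ratio of -0.11 with probe sets from -0.23 to 0.08. Its direction thus depended on the probe set. Hsp90b1, which encodes GRP94, the ER member of the HSP90 class, was 1.56-fold lower, with 5286 and 3389. It was the only chaperone past 1.5-fold, while the second probe set gave -0.20. The lectin chaperones, which hold glycoproteins until they fold, were measured by 3 probe sets each. Calr had signals of 5230 and 4588, and its log2 ratios ran from -0.49 to -0.19. Canx had signals of 5050 and 4965, and its log2 ratios ran from -0.02 to 0.23, again on both sides of 0.

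The cofactors and induced helpers of BiP were split. Creld2, an ER stress-induced secreted protein, had signals of 1007 and 784, a log2 ratio of -0.36. Sdf2l1, a partner of BiP with its J proteins, had 632 and 535 (log2 ratio -0.24), and Manf, a secreted factor that binds BiP, 3583 and 3044 (log2 ratio -0.24). Dnajc3, a J protein, had 2398 and 2241, and its 5 probe sets ran from -0.33 to 0.02. On the other side of 0, Dnajb9, a J protein that returns IRE1 to its resting state, had 1182 and 1406 (log2 ratio 0.25). Hyou1, the nucleotide exchange factor of BiP, had 355 and 398 with log2 ratios of 0.16 and 0.36, and Dnajb11, a further J protein, 825 and 883 (0.10). Across the group 15 of 23 measured probe sets lay below 0.

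The disulfide isomerases make and rearrange the cross-links of secreted proteins. Pdia4 had signals of 1657 and 1113, 1.49-fold lower and the furthest down of this group. Pdia6, which also limits IRE1 signalling, had 3255 and 2726 (log2 ratio -0.26), and Pdia3, the partner of calnexin and calreticulin, 5861 and 5552 (log2 ratio -0.08, with -0.19 in its other probe set). P4hb, which is also the β subunit of collagen prolyl 4-hydroxylase, went the other way with 6278 and 7631 (log2 ratio 0.28). Each of Pdia4, Pdia6 and P4hb rests on 1 measured probe set.

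The collagen-specific factors had nearly equal ratios just above 1 on all 5 measured probe sets, except that Serpinh1 was below 1 after quantile normalisation and after loess. Serpinh1, which encodes HSP47, the chaperone that binds the procollagen triple helix, had signals of 9144 and 9931, with log2 ratios of 0.12 and 0.13. Ppib, the cyclophilin of the prolyl 3-hydroxylation complex, had 7022 and 7923 (0.17 and 0.08), and Crtap, the helper protein of that complex, 4507 and 4900 (0.12). These 3 ratios lie within the spread of probe sets of a gene.

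**Figure D2:**
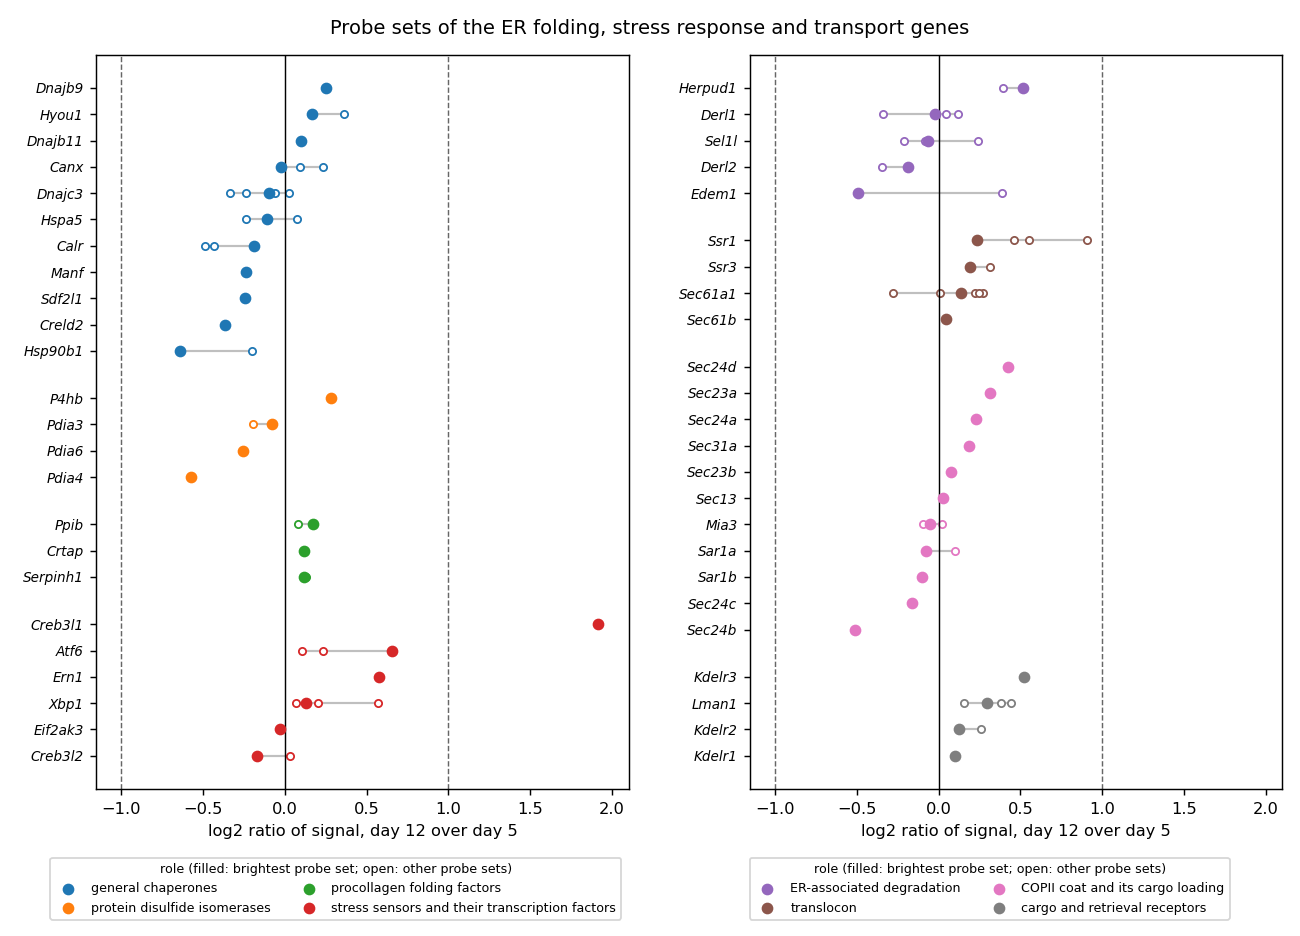
Log2 ratio of signal, day 12 over day 5, for all measured probe sets of the 48 measured members, ordered within each role. Filled points are the brightest probe set of a gene, open points its other measured probe sets, grey lines their range, and dashed lines mark 2-fold; probe sets of Edem1, Canx, Derl1 and Sel1l fall on both sides of 0, while those of Lman1, Ssr1 and Xbp1 stay above it.

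The sensors and their transcription factors held the widest range of the role groups. Creb3l1 had signals of 368 and 1387, a log2 ratio of 1.91 from its only probe set. Its ratio was past 2-fold under each of the 8 alternatives and also past 3-fold as deposited. Creb3l2, its closest relative here, had 817 and 727, with log2 ratios of -0.17 and 0.03 from its 2 measured probe sets. Over the same days the 9 measured myeloid markers were between 2.19-fold and 4.38-fold higher. The 7 measured osteoblast markers were between 1.16-fold (Col1a2) and 20.2-fold (Dmp1) higher, with the osteoblast factor Sp7 at 3.45-fold. The part of these markers in the Creb3l1 value was not tested.

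The 3 classical sensors were not alike. Atf6 had signals of 204 and 322, 1.58-fold higher in its brightest probe set, with log2 ratios of 0.23 and 0.10 in the other measured ones. Ern1 had 225 and 336, 1.49-fold higher, in the only 1 of its 5 probe sets that was above the floor. Eif2ak3 had 712 and 697 (log2 ratio -0.03). Xbp1 had 3720 and 4066, and all 4 of its measured probe sets lay above 0, from 0.07 to 0.57. The highest of them was dim, with signals of 52.6 and 77.9. Whether its message was spliced was not analysed here.

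ER-associated degradation extracts misfolded proteins to the proteasome. Of its 5 measured members, 4 had a ratio below 1, against 5915 of all 10479 measured genes. Herpud1, a stress-induced component of the extraction complex with the ERSE-II shown above, was the exception, with signals of 775 and 1111, 1.43-fold higher, and its second probe set gave 0.39. Edem1, a lectin that picks out misfolded glycoproteins, had 1116 and 794 in its brightest probe set (log2 ratio -0.49) but 350 and 459 in the other (0.39). Its direction is therefore not settled by these probes. Sel1l, the adaptor of the HRD1 ligase, had 1334 and 1274 (-0.07), Derl1, a channel component, 1994 and 1962 (-0.02), and Derl2, its relative, 1589 and 1399 (-0.18, with -0.35 in its other probe set). Sel1l and Derl1 each had probe sets on both sides of 0.

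The translocon brings new chains into the ER. All 4 of its members had ratios above 1 as deposited, with Sec61b below 1 after quantile normalisation and after loess, and 12 of their 13 measured probe sets did. Of all measured genes, 43.6% had a ratio above 1. Ssr1 and Ssr3 encode subunits of the signal sequence receptor, which sits beside the channel. Ssr1 had signals of 5131 and 6050, with log2 ratios from 0.24 to 0.90 over 4 probe sets, where the dimmest gave the highest ratio, and Ssr3 had 5489 and 6281 (0.19 and 0.31). The channel subunit genes Sec61a1 and Sec61b had 3467 and 3820 (0.14) and 6112 and 6310 (0.05).

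The COPII coat showed no common direction, with 6 of 11 ratios above 1 and 5 below, against 43.6% of all measured genes above 1. In the inner coat, Sec23a, which is mutated in a human skull defect, had signals of 2752 and 3416 (log2 ratio 0.31), and its paralog Sec23b 978 and 1030 (0.07). The cargo-binding Sec24 paralogs lay on both sides of 0. Sec24d, which is required for collagen export in fish and human skeletal development, had 1891 and 2540, 1.34-fold higher, and Sec24a had 700 and 820 (0.23). Sec24c had 1093 and 978 (-0.16), and Sec24b had 256 and 179, 1.43-fold lower. Each of these Sec23 and Sec24 values rests on 1 measured probe set.

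In the outer cage Sec31a had signals of 988 and 1126 (log2 ratio 0.19) and Sec13 had 2704 and 2753 (0.03). The GTPases that start coat assembly were near 1, with 2791 and 2645 for Sar1a (-0.08, and 0.10 in its other probe set) and 1965 and 1835 for Sar1b (-0.10). Mia3, which encodes TANGO1, the receptor that loads procollagen into COPII carriers, had 1055 and 1016, and its 3 measured probe sets ran from -0.10 to 0.02. The genes of coat start and procollagen loading thus lay within the spread of probe sets between the days.

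All 4 cargo and retrieval receptors had ratios above 1 on all 8 measured probe sets, except that Kdelr2 was below 1 after quantile normalisation and after loess. The share of all measured genes with a ratio above 1 was 43.6%. Kdelr3, a KDEL receptor, had signals of 2476 and 3551, 1.43-fold higher. Its paralogs Kdelr1 and Kdelr2 had 2850 and 3055 (log2 ratio 0.10) and 7507 and 8175 (0.12, with 0.26 in the other probe set). Lman1, a lectin that carries glycoproteins out of the ER, had 2899 and 3564 (log2 ratio 0.30), and its 4 measured probe sets ran from 0.16 to 0.44.

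The measured members were then set side by side by promoter motif. As deposited, the brightest probe sets of the 7 with an ERSE (Hspa5, Hsp90b1, Calr, Canx, Dnajc3, Creld2 and Pdia6) had ratios below 1, with a median log2 ratio of -0.19 and a range from -0.64 to -0.02. Of all 10479 measured genes, 5915 had a ratio below 1. All of the 7 but Pdia6 are general chaperones counted above, so this is not a separate observation. Hspa5, Dnajc3 and Canx also had measured probe sets above 0, and Canx turned above 1 with median centring and with the median over probe sets. When shared-sequence probe sets were dropped, 4 of the 7 had a value, 3 below 1 and Canx above it. The 2 with an ERSE-II, Herpud1 and Dnajb11, had 0.52 and 0.10. The 3 with TGACGTGG, Sec23a, Sec24d and Kdelr3, had 0.31, 0.43 and 0.52. The 28 members with a window and none of the searched motifs had 15 ratios above 1 and 13 below, with a median of 0.04. The classes were set up after the values were known, they hold few genes, and the differences between them were not tested.

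**Figure D3:**
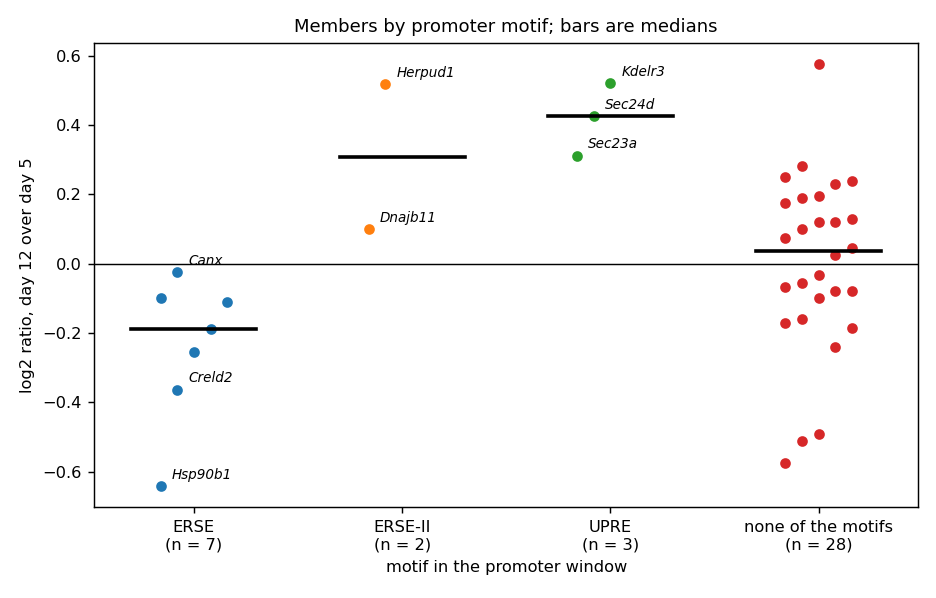
Log2 ratio of signal, day 12 over day 5, of the 40 measured members with a promoter window, by the motif found there, each point 1 gene and each bar a median. Hspa5 also holds TGACGTGA and is shown with the 7 ERSE genes, which lie below 0 as deposited, while the 2 ERSE-II and 3 UPRE (TGACGTGG) genes lie above it.

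Other genes of the pathway gave the setting for these values. Of 12 listed targets of the PERK-ATF4 arm, 11 were measured, with a median log2 ratio of 0.996. Of these, 5 reached 2-fold higher, against 3.56% of all measured genes, and none reached 2-fold lower. The 2 with a ratio below 1 were Sesn2 (log2 ratio -0.18) and Cebpb (-0.22), and Slc7a11 lay below the floor on both days. The list is named for this arm, and whether PERK or another input to ATF4 lay behind its values was not tested. Chac1, a glutathione-degrading enzyme, had signals of 111 and 657, 5.90-fold higher, Nupr1, a stress-induced chromatin protein, 892 and 2663 (2.98-fold), and Ddit4, an inhibitor of mTORC1, 1058 and 2581 (2.44-fold). The pseudokinase gene Trib3 and the transcription factor gene Atf3 were below the floor at day 5 and at least 4.56-fold and 3.70-fold higher. With the 75th percentile floor, and likewise when shared-sequence probe sets were dropped, 9 targets were measured. The list's median was then 0.68 and 3 genes were past 2-fold. With median centring, quantile normalisation or loess, 6 genes were past 2-fold. Ddit4 is known as a target of low oxygen as well.

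Of 15 further ER oxidation and disulfide enzymes, all measured, only Ero1a reached 2-fold, upward (median 0.00). Ero1a, the oxidase that recharges P4hb and a known target of low oxygen, had signals of 405 and 1467, 3.62-fold higher, with log2 ratios from 1.86 to 2.48 over 3 probe sets. Qsox1 and Tmx1, which form and shuffle disulfides, had log2 ratios of 0.55 and 0.34. Of 16 further procollagen-modifying and folding factors (median 0.24), 4 reached 2-fold, all upward. These 4 were hydroxylase genes, which make up most of the list. Of all measured genes, 3.56% were at least 2-fold higher. P4ha1, the catalytic partner of P4hb, had 1010 and 5595 (5.54-fold) and P4ha2 952 and 4134 (4.34-fold), whereas P4hb itself had the log2 ratio of 0.28 given above. P3h2 had 58.4, near the floor, and 485 (8.30-fold higher), and Plod1 had 327 and 790 (2.42-fold). P4ha2, P3h2 and Plod1 each rest on 1 measured probe set. Other hydroxylase genes of the list were not past 2-fold. P3h1, P3h3 and Plod2 had log2 ratios of 0.21, 0.24 and 0.82, while P4ha3 and Plod3 had -0.46 and -0.09.

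In the remaining lists no gene was past 2-fold in either direction. Of 16 measured further degradation genes the median log2 ratio was 0.08, and Ufd1, Edem2 and Nploc4 had -0.63, 0.29 and -0.28. Of 28 measured further translocon, signal peptidase and N-glycosylation genes 24 had a ratio above 1 (median 0.13), against 43.6% of all measured genes. The part of signal level in this count was not tested. The glucosidase gene Mogs had 0.65, and Srp72 and Sec63 both had 0.35. Of 21 measured further ER export genes the median was 0.04, with -0.74 for Tmed5, 0.54 for Tfg and 0.49 for Ergic3. The 11 genes of the COPI coat, which runs from the Golgi back to the ER, had a median of 0.12, with 0.27 for Arcn1, 0.21 for Copb2 and 0.20 for Cope. Among 6 measured other membrane-bound stress factors and their proteases (median -0.04), Creb3 had -0.08, and Mbtps2 and Mbtps1, which encode the proteases that cut ATF6 and OASIS, had 0.39 and -0.24.

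**Figure D4:**
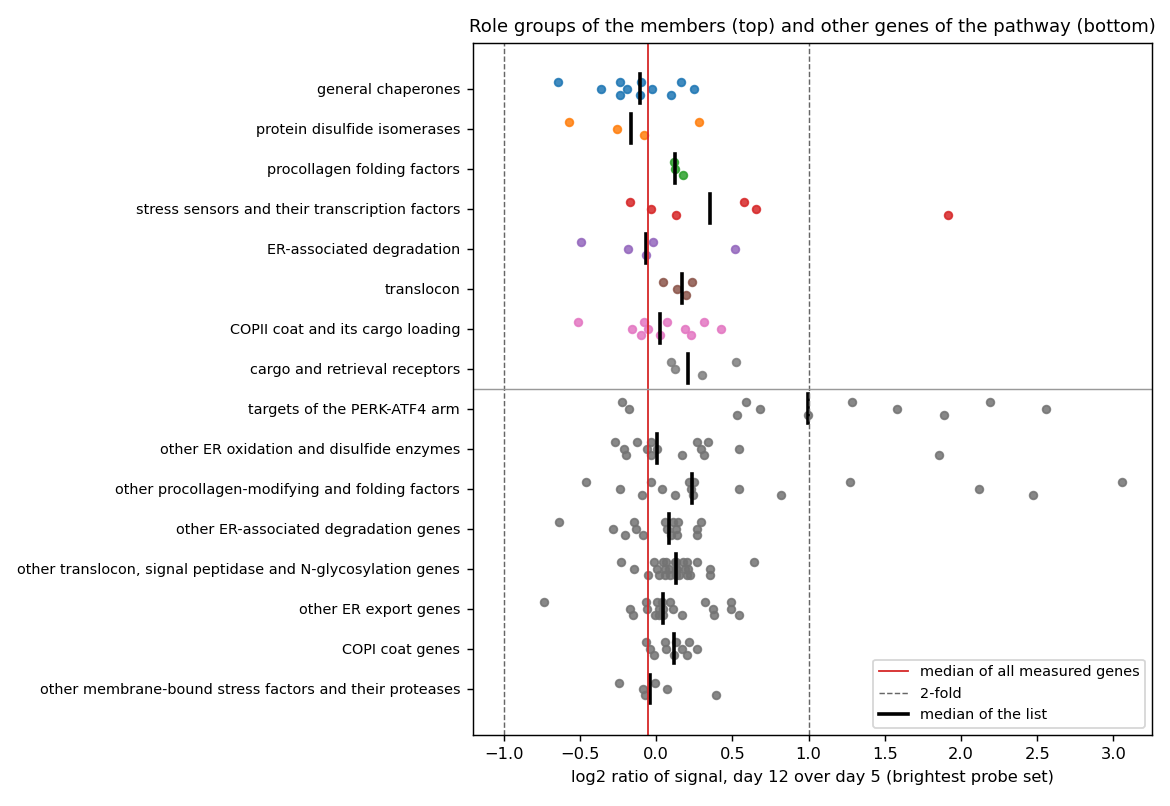
Log2 ratio of signal, day 12 over day 5, of the measured genes of the 8 role groups (above the grey line) and of the 8 other pathway lists (below it), each point the brightest probe set of 1 gene and each bar the median of the list. The red line is the median of all measured genes (-0.05), the dashed lines mark 2-fold, and points past 2-fold lie in the sensor group and in the PERK-ATF4, oxidation and procollagen-modifying lists alone.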

How the data were processed

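The authors deposited signal intensities on a linear scale for 1 Affymetrix array per day, made with MAS5 in GCOS 1.4 per the submitters' processing notes. Other settings were not given in the sources used here. Both arrays had a 2% trimmed mean of 200.0, so a shift in RNA per cell would not be seen. Names came from the platform's annotation, with symbols updated by Entrez number through a table of GRCm38.p6. Of 45037 probe sets other than controls, 34945 had 1 symbol. The 932 with several and the 9160 with none were not named.

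No further normalisation was applied. The brightest probe set stood for each gene, signals under the floor were set to the floor ahead of the log2 step, and 2-fold was the threshold. The list of members uses no measured value in its rule, but it, the role groups, lists and motifs were drawn up with earlier results of these data known. All 50 members were to be named, and of other lists the genes past 2-fold and the 3 with the largest ratio above the floor on both arrays. Some further genes of the PERK-ATF4 and procollagen-modifying lists are named as well. No test was possible at 1 array per day, and the number of arrays limits the precision. The code was tested on simulated data, in Python 3.11.15 with numpy 2.4.6, pandas 2.3.3 and statsmodels 0.14.6.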

Additional observations from a re-analysis of the deposited data

How the results depend on the processing

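Values were recomputed after quantile normalisation, after loess, after median centring, with the floor moved to the 50th or the 75th percentile, with a pseudocount of 50, with each gene's median probe set, without shared-sequence probe sets, and at 1.5-fold and 3-fold. The count of members past the threshold was 2 higher and 1 lower at 1.5-fold, and 1 lower at 2-fold with the 50th percentile floor, where Derl3 came in as a bound; it was 1 higher and 0 lower otherwise. Creb3l1 stayed past 2-fold throughout. The members' median log2 ratio ran from -0.03 to 0.11 and was below 0 with quantile normalisation and loess. That of the sensors was 0.57 without shared-sequence probe sets and ran from 0.20. That of the chaperones ran from -0.22 to -0.00, the translocon from 0.06 to 0.24, the receptors from 0.14 to 0.30 and the COPII coat from -0.02 to 0.08. For the procollagen folding factors it ran from 0.004 to 0.17, the disulfide isomerases from -0.26 to -0.11 and the degradation genes from -0.12 to -0.01. Of the 48 members, 39 kept the sign of their log2 ratio in each value that could be computed, and Canx, Serpinh1, Eif2ak3, Derl1, Sec61b, Sar1a, Sec13, Mia3 and Kdelr2 did not. No paired analysis was possible because each day had 1 array. Probe sets near the floor limit Derl3 and the dim probe sets of Ern1.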
